A study of Homo sapiens with 8 samples.

Results

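The genes described here are 8 members of the Krüppel-like factor (KLF) family, KLF2, KLF3, KLF4, KLF6, KLF9, KLF10, KLF11 and KLF13. They were taken by symbol from the 19447 named genes of the count table and followed across all 8 libraries by dose. The 10 other KLF genes, the erythroid KLF1 among them, were left out and are given further below for comparison. The 8 members were chosen with earlier results of these data known, so their counts and medians do not describe the whole family. The study sequenced RNA from wild-type K562, an established human erythroleukaemia line that carries the BCR-ABL1 fusion, and its stated design compares cells with and without Lip-1. The labels do not expand the name Lip-1, which commonly stands for liproxstatin-1, a blocker of lipid peroxidation and ferroptosis. The control group holds 4 libraries without Lip-1 (Day 0), another group 3 libraries at 10 µM for 24 h (Day 1, replicates 2 to 4) and the last a single library at 20 µM for 24 h (Day 1, replicate 1). Treatment and day coincide, so an effect of Lip-1 and one of the added day cannot be told apart, and a vehicle for the controls is not mentioned. Nothing in the labels says that replicates were separate cultures, so p-values measure only the spread between these libraries, which may be technical.

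KLF proteins bind GC-rich DNA, such as the CACCC box and the GC box, through a C-terminal DNA-binding domain of zinc fingers that closely resembles that of the SP factors. The N-terminal parts differ and set whether a member mainly activates, mainly recruits the corepressor CtBP (KLF3) or mainly recruits the SIN3A and histone deacetylase complex (KLF9, KLF10, KLF11, KLF13). Red cell precursors rely on KLF1, which switches on globin genes and also activates the KLF3 gene, whose product binds many of the same sites and represses. Several members are early response genes that signals or stress can induce quickly.

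Total counts ran from 71151415 to 141307169 per library. All 10 erythroid marker genes were detected at 1 CPM (counts per 1000000) or more in at least 1 library. Their summed level was 4947 to 8117 CPM in the controls, 4581 to 5644 CPM at 10 µM and 3238 CPM at 20 µM. The single markers did not all follow the sum. At 10 µM the mean CPM of TFRC, TAL1, NFE2 and EPOR lay above the control mean, and that of the other erythroid markers below it. TFRC averaged 1196 CPM at 10 µM against 760.4 CPM in the controls, and HBG2 1979 against 3042 CPM. Markers of other cell types were low. Under 1 CPM in every library were 4 of 8 monocyte and granulocyte markers (1 of them at 0 throughout), 5 of 8 lymphocyte, 4 of 6 endothelial and 5 of 8 epithelial and fibroblast markers. The summed monocyte and granulocyte markers, mostly LYZ, ran from 17.9 to 126.4 CPM in the controls, from 20.0 to 108.8 CPM at 10 µM and stood at 26.8 CPM at 20 µM. The lymphocyte sum was 13.6 to 18.2, 13.9 to 24.1 and 7.50 CPM in the same order, the endothelial sum 7.74 to 19.7, 9.11 to 13.9 and 17.6 CPM, and the epithelial and fibroblast sum 32.3 to 55.6, 34.7 to 43.6 and 28.1 CPM. Their part in the results was not tested. In bulk RNA, fewer cells of a type and less RNA per cell cannot be told apart.

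The promoters of KLF6, KLF9 and KLF11 are shown because these genes were higher in every treated library than in any control, and that of KLF2 because its level stood furthest above all other libraries at 20 µM. Sequences are from RefSeq on GRCh38.p14, run 5′ to 3′ on the gene's strand from 250 bases before to 50 bases after the annotated start, and matched 6 of the 8 members by symbol. KLF3 and KLF10 were not matched, and KLF11 had 2 entries, of which the one starting further downstream is shown. Capitals mark every match on either strand to 6 motifs: the CACCC box (CACCC), the GC box (GGGCGG), the E box (CACGTG), the cAMP response element (TGACGTCA), the AP-1 site (TGANTCA) and the MEF2 site. The motifs were chosen with the sequences known, and a match is a description of the letters only.
KLF6 (chr10:3785160-3785459, minus strand): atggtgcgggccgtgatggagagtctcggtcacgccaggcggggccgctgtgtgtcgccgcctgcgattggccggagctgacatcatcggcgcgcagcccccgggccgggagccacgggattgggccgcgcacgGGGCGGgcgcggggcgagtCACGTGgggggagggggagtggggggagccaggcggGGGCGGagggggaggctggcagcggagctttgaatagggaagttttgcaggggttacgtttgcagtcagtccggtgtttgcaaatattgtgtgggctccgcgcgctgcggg
KLF9 (chr9:70414608-70414907, minus strand): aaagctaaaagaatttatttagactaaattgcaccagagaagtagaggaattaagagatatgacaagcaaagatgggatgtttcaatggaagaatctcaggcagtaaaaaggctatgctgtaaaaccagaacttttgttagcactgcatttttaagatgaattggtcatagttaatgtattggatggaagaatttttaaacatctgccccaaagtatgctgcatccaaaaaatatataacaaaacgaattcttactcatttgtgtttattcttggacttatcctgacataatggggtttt
KLF11 (chr2:10043971-10044270, plus strand): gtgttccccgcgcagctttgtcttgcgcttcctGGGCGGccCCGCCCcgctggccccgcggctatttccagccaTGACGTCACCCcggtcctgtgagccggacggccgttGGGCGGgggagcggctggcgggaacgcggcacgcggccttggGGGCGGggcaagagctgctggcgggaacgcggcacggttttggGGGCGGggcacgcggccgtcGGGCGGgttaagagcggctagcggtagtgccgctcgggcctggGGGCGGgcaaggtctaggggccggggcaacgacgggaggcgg
KLF2 (chr19:16324576-16324875, plus strand): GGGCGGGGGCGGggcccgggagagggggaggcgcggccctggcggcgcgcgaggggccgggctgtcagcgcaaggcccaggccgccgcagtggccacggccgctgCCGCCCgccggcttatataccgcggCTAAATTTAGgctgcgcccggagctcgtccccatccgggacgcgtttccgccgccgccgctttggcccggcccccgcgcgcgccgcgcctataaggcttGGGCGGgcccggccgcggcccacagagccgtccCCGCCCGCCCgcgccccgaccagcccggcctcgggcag

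The 4 windows shared no common set of matches. KLF6 held 2 GC boxes, beginning 116 and 61 bases before the start, and an E box beginning 97 bases before it. KLF11 held 7 GC boxes and, 176 bases before the start, a cAMP response element that overlaps a CACCC box. Its annotated start in this entry lies 1372 bases downstream of the start of the GENCODE gene. The KLF11 entry not shown starts 980 bases downstream of it and held 2 GC boxes and an E box. That entry held no cAMP response element and no CACCC box, so these matches depend on the entry chosen. KLF2 held 6 GC boxes, some overlapping, and a match to the MEF2 site, CTAAATTTAG, 120 bases before the start. KLF9 held no match to any of the 6 motifs, and its window was 32.7% G and C against 70.7% for KLF6, 75.3% for KLF11 and 80.7% for KLF2. Of the 2 others, KLF4 held 4 GC boxes and an E box, and KLF13 held 3 GC boxes and a CACCC box. Among 35116 RefSeq promoters of the same length, 45.0% held a GC box, 59.9% a CACCC box, 7.26% an E box, 1.85% a cAMP response element, 7.71% an AP-1 site and 2.99% a MEF2 site.

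KLF6, an activator first described as a core promoter-binding factor and studied as a growth suppressor that can switch on CDKN1A, had the largest difference from control. Its gene lies at chr10:3775996-3785281 (hg38, GENCODE). KLF6 stood at 34.3, 34.6, 27.9 and 36.3 CPM in controls 1 to 4, at 146.3, 266.6 and 275.7 CPM in 10 µM replicates 2 to 4, and at 1399 CPM at 20 µM. All treated libraries lay far above all controls, and the 20 µM library stood above the rest with 173800 counts. Against the control mean of 33.3 ± 3.70 CPM (SD, n = 4), the 10 µM mean of 229.55 ± 72.2 (n = 3) was 6.90 times as high and the 20 µM library 42.1 times.

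KLF9, a short repressor that glucocorticoid and thyroid hormone induce in many tissues, was about 2.20 times as high at the lower dose as in the controls. Its gene lies at chr9:70384597-70414624. The controls held 20.1, 19.0, 21.35 and 20.5 CPM, the 10 µM libraries 37.0, 50.1 and 46.5 CPM and the 20 µM library 78.7 CPM. Controls were tightly grouped and no treated library reached down to them. The mean was 20.2 ± 0.976 CPM in the controls (SD, n = 4) and 44.5 ± 6.77 CPM at 10 µM (n = 3), and the 20 µM library stood 3.89 times above the control mean.

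KLF11 and KLF10 are the TGF-beta-inducible early genes, related SIN3A-binding repressors that slow growth when overproduced. KLF11 (chr2:10042849-10054836) was nearly the same in all controls, at 26.7, 26.8, 27.6 and 27.1 CPM, and reached 35.7, 41.7 and 44.7 CPM at 10 µM and 97.6 CPM at 20 µM. The groups did not overlap. KLF10 (chr8:102648779-102655902) stood at 32.9, 22.8, 22.2 and 28.6 CPM in the controls, 29.4, 35.7 and 42.2 CPM at 10 µM and 77.5 CPM at 20 µM. Here the lowest 10 µM library lay below the highest control, so the 10 µM and control groups overlapped, while the 20 µM library stood apart.

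**Figure D1:**
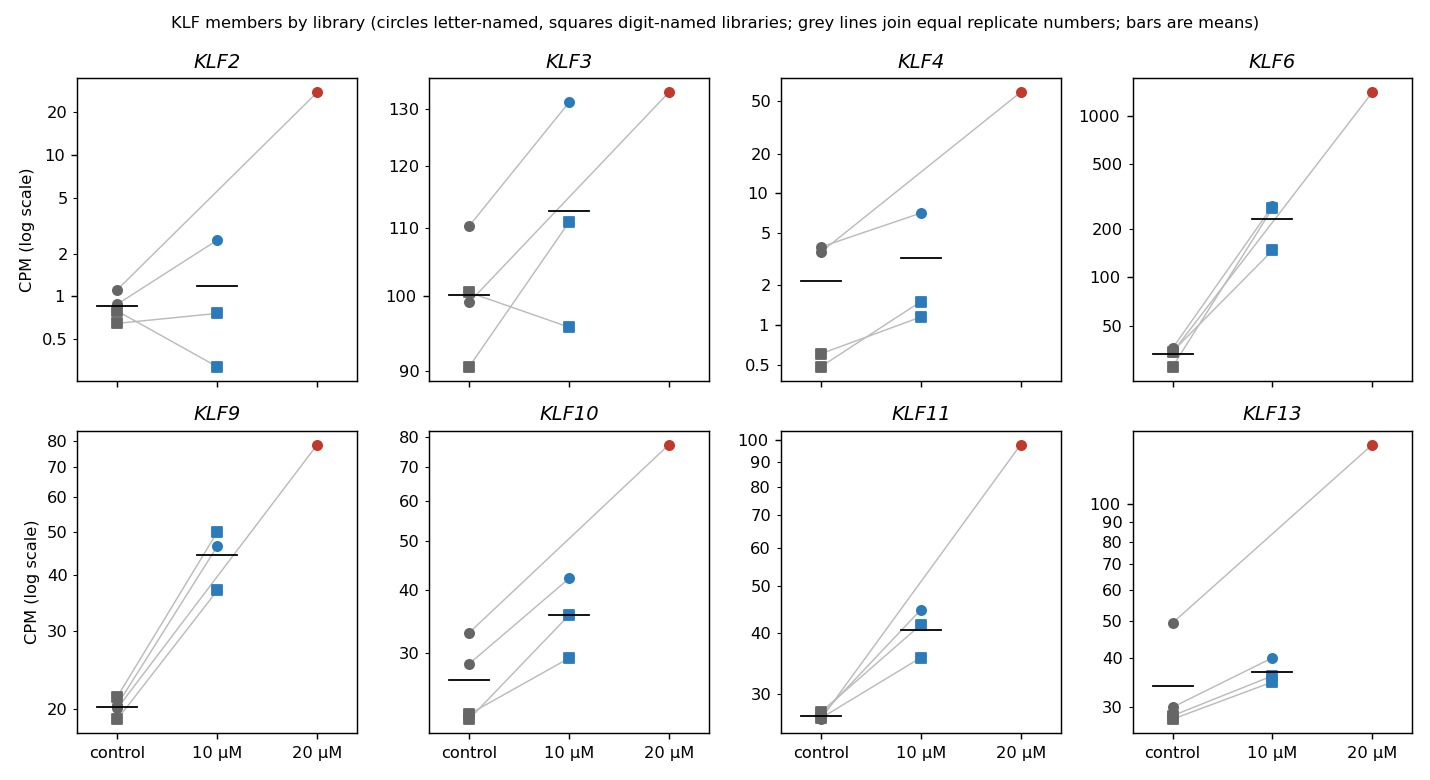
Level of each of the 8 KLF genes in CPM (log axis, with a different range in each panel) in the 4 controls, the 3 libraries at 10 µM and the single library at 20 µM. Bars are group means, grey lines join equal replicate numbers, and circles and squares separate libraries named with letters from those named with digits. KLF6, KLF9 and KLF11 lie above all controls in every treated library, and in all 8 panels the 20 µM point is the highest.

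KLF13, a SIN3A-binding factor known from T cells as an activator of the chemokine gene CCL5, stood clear of the controls at 20 µM but not at 10 µM. The gene lies at chr15:31326855-31435665. Controls held 49.3, 28.4, 27.9 and 29.9 CPM, the 10 µM libraries 36.0, 34.7 and 40.1 CPM and the 20 µM library 142.4 CPM. Control 1 stood apart from the other controls and above every 10 µM library. The mean was 33.9 ± 10.3 CPM in the controls (SD, n = 4) and 37.0 ± 2.80 CPM at 10 µM (n = 3). Read within replicate numbers, KLF13 was higher in the treated library in 4 of 4 pairs, at 2.89, 1.27, 1.25 and 1.34 times its control in pairs 1 to 4, and control 1 is paired with the 20 µM library.

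KLF2 and KLF4 are the closely related activators of quiescence and differentiation, KLF2 in endothelium and resting lymphocytes and KLF4 in epithelia and as a reprogramming factor. Both had the lowest levels per length among the 8 members in untreated cells. KLF2 (chr19:16324817-16327874) held 1.12, 0.788, 0.645 and 0.882 CPM in the controls, or 51 to 158 counts, and 0.318, 0.759 and 2.50 CPM at 10 µM. In the 20 µM library it stood at 27.8 CPM, from 3459 counts, 11.1 times the highest other library. The 10 µM libraries lay on both sides of the controls, and replicate 4 alone was above them.

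KLF4 (chr9:107484852-107490482) held 3.56, 0.603, 0.481 and 3.90 CPM in controls 1 to 4 and 1.15, 1.50 and 7.06 CPM in 10 µM replicates 2 to 4. At 20 µM it reached 58.5 CPM, 8.28 times the highest other library. Its controls split by a pattern in the submitters' library names, which use letters for replicates 1 and 4 and digits for replicates 2 and 3. The letter-named controls averaged 6.88 times the digit-named ones, against 1.40 for KLF2, 1.41 for KLF13 and 1.37 for KLF10 and between 0.990 and 1.13 for the other 4 members. The labels do not call this naming a batch, and whether it marks one was not tested. Read within replicate numbers, KLF4 was higher in the treated library in 4 of 4 pairs, at 16.4, 1.90, 3.13 and 1.81 times its control in pairs 1 to 4. KLF2 and KLF3 were lower in the treated library of pair 2, at 0.404 and 0.952 times its control, and higher in the other pairs. The remaining members were higher in every pair. The share of all genes higher in every pair is not given, so these readings have no background.

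KLF3, the CtBP-binding repressor of the erythroid network, had the smallest log2 difference of the 8 members in treated against control and from 10 to 20 µM, though not at 10 µM, where that of KLF13 was smaller. The gene lies at chr4:38664196-38701042. It stood at 99.1, 100.5, 90.6 and 110.3 CPM in the controls, 95.7, 110.9 and 131.3 CPM at 10 µM and 133.1 CPM at 20 µM. In these CPM, scaled by total counts only, the 10 µM libraries overlapped the controls, with 2 of 3 above the highest control. The 20 µM library was 1.01 times the highest of the others.

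Across the 8 members, KLF6, KLF9 and KLF11 were higher in every treated library than in every control. That is 3 of 8, where 18.1% of the 13101 genes tested showed the same separation, and the same 3 of 8 held for the 10 µM libraries alone, against 21.8% of 14857 genes. All 8 members were highest in the 20 µM library, which held for 35.3% of genes.

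The comparison of the 4 treated with the 4 control libraries called 2 of 8 members at an adjusted p under 0.05 (edgeR quasi-likelihood test, Benjamini-Hochberg over all genes tested), both higher, against 14.2% of all genes in either direction, 7.47% higher and 6.69% lower. KLF6 rose by 3.86 ± 0.69 on the log2 scale (SE, adjusted p = 0.0167) and KLF9 by 1.27 ± 0.23 (adjusted p = 0.0166). KLF2 and KLF4 had log2 differences of 3.09 ± 1.23 and 2.92 ± 1.30 with adjusted p = 0.115 and 0.149, and their treated libraries were themselves far apart. KLF11 stood at 0.91 ± 0.30 (adjusted p = 0.0736), KLF13 at 0.80 ± 0.47 (0.263), KLF10 at 0.68 ± 0.29 (0.132) and KLF3 at 0.12 ± 0.13 (0.555). The median log2 difference was 1.09 over the members and 0.08 over all genes tested. Without control 2, 3 or 4 both calls were lost, with adjusted p of 0.0616, 0.0705 and 0.0527 for KLF6 and 0.0612, 0.0661 and 0.0524 for KLF9. Without the 20 µM library KLF11 passed as well, at 0.45 (adjusted p = 0.0140), while KLF6 stood at 2.65, KLF4 at 0.45, KLF2 at 0.31 and KLF10 at 0.29.

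At 10 µM, 3 of 8 members rose against control and none fell, where 19.1% of 14857 genes changed in either direction, 9.34% upward and 9.79% downward. KLF6 rose by 2.66 ± 0.20 (log2, SE, adjusted p = 0.000405), KLF9 by 1.01 ± 0.13 (0.00224) and KLF11 by 0.46 ± 0.11 (0.0181). The other 5 did not pass, at 0.47 ± 0.82 for KLF4 (adjusted p = 0.743), 0.33 ± 0.55 for KLF2 (0.735), 0.30 ± 0.15 for KLF10 (0.210), 0.04 ± 0.11 for KLF3 (0.838) and 0.00 ± 0.18 for KLF13 (0.992). The median over the members was 0.39, against 0.05 over all genes. With replicate number as a block, 5 of 8 rose, where 31.3% of all genes were called in either direction and the share that rose is not given. The added members were KLF4 at 0.96 (adjusted p = 0.00467) and KLF10 at 0.39 (0.0285). KLF11 lost its call without 10 µM replicate 3 or 4 (adjusted p = 0.0666 and 0.0615), and the log2 differences of KLF2 and KLF4 were both −0.77 without 10 µM replicate 4.

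The single 20 µM library was set against the 3 libraries at 10 µM in the same fit, in which it is assumed to vary like the other libraries, and this contrast shares the 10 µM libraries with the one before. Here 7 of 8 members were called higher, where 26.3% of genes were called in either direction, 11.7% higher and 14.6% lower. The largest log2 differences were those of the members that had been lowest, 4.57 ± 0.76 for KLF2 (SE, adjusted p = 0.00313) and 4.20 ± 1.12 for KLF4 (0.0230). KLF6 rose by a further 2.61 ± 0.27 (0.000499), KLF13 by 1.95 ± 0.25 (0.00112), KLF11 by 1.26 ± 0.15 (0.000837), KLF10 by 1.12 ± 0.22 (0.00647) and KLF9 by 0.82 ± 0.19 (0.0128). KLF3 was not called, at 0.24 ± 0.17 (0.317). The median was 1.60, against 0.01 over all genes. KLF4 lost its call without 10 µM replicate 2 or 3 (adjusted p = 0.0719 and 0.0744), and these values rest on 1 library, with no replicate at 20 µM.

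**Figure D2:**
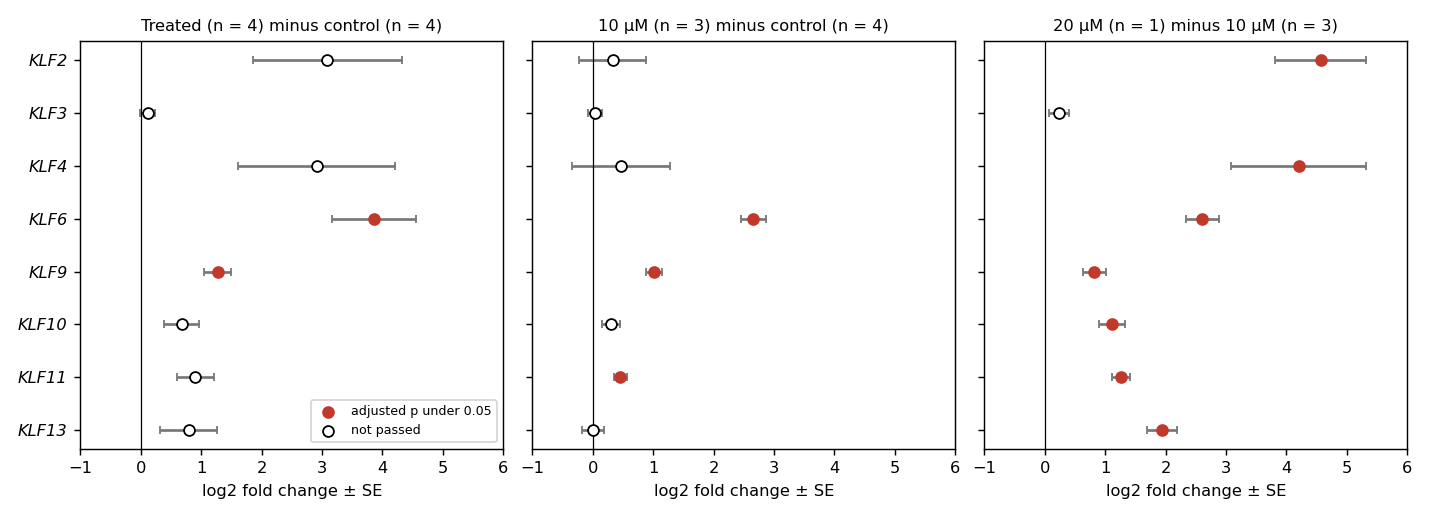
Log2 fold change with its standard error (bars) for each KLF member in the 3 comparisons, treated minus control, 10 µM minus control and 20 µM minus 10 µM. Filled points passed an adjusted p under 0.05 in edgeR's quasi-likelihood test. Going from left to right, 2, 3 and 7 of 8 members are filled, and KLF2 and KLF4 pass in the rightmost panel only.

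Within each naming style, treated and control libraries were also compared in a fit over all 8. In the letter-named libraries, which include the 20 µM one, 2 of 8 members passed, against 7.84% of genes in either direction and 3.57% higher, with KLF6 at 4.45 (log2, adjusted p = 0.0365) and KLF9 at 1.49 (0.0376). Among the digit-named, 0 of 8 members passed, where 0.421% of genes did and 0.335% were higher, and KLF6 stood at 2.54 (adjusted p = 0.117) and KLF9 at 0.92 (0.154). Without adjustment 2 of 8 members and 2832 genes passed there in edgeR. The response itself did not pass as different between styles for any member (edgeR, adjusted p = 0.890 for each) or for any of 14014 genes. At an unadjusted 0.05, 1 of 8 members (KLF2) and 473 genes passed in edgeR, and DESeq2 called 14 genes after adjustment, 0 of them members. The letter-named set confounds naming with the 20 µM dose.

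Levels were compared between members per kilobase of merged exon (CPM per kb, GENCODE 29). In controls KLF3 led at 16.7 CPM per kb, followed by KLF10 at 6.65 and KLF11 at 6.29, then KLF6 at 5.57, KLF13 at 4.92 and KLF9 at 3.91, and last KLF4 at 0.728 and KLF2 at 0.425. The ranges of KLF10 and KLF11 overlapped, as did those of KLF6 and KLF13, KLF13 and KLF9, and KLF4 and KLF2, so those neighbours did not differ beyond their spread. At 10 µM KLF6 led at 38.4 CPM per kb, above KLF3 at 18.8, with KLF11, KLF10 and KLF9 overlapping at 9.47, 8.93 and 8.61, KLF13 below them at 5.37, and KLF4 and KLF2 overlapping at 1.10 and 0.592. At 20 µM KLF6 stood at 234.1 CPM per kb, and the other 7 lay between 13.8 (KLF2) and 22.7 (KLF11). The gap between the rarest and the commonest of those 7, wide in the controls, was thus narrow in that library.

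KLF6 made up 11.5 to 13.5% of the members' summed CPM per kb in the controls, 35.5 to 45.8% at 10 µM and 63.6% at 20 µM. The share of KLF3 ran the other way, from 33.4 to 39.1% in the controls through 19.0 to 23.1% at 10 µM to 6.03% at 20 µM, while its own level stayed between 90.6 and 133.1 CPM. The sum itself was 40.4 to 49.5 CPM per kb in the controls, 69.0 to 107.4 at 10 µM and 368.0 at 20 µM.

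**Figure D3:**
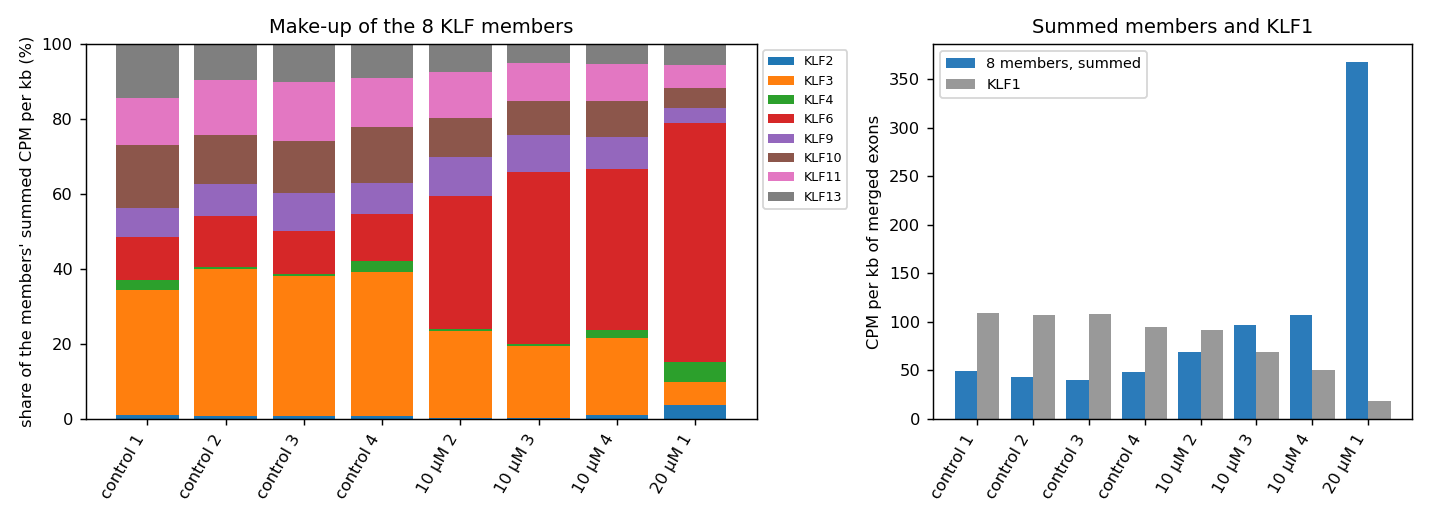
Left, share of each KLF gene in the members' summed CPM per kb of merged exon for each of the 8 libraries. Right, that sum beside KLF1 in the same unit. KLF6 grows from 11.5 to 13.5% in the controls to 63.6% at 20 µM, and the sum exceeds KLF1 in 10 µM replicates 3 and 4 and at 20 µM.

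KLF1, the erythroid factor that the selection left out, is given for comparison. It stood at 94.7 to 109.4 CPM per kb in the controls, above the summed members in each of them, at 50.2 to 92.0 at 10 µM and at 18.2 at 20 µM. In CPM the controls held 176.3, 172.7, 174.9 and 152.6, the 10 µM libraries 148.2, 111.1 and 80.9 and the 20 µM library 29.3. Every treated library lay below every control, as held for 10.5% of genes. KLF1 fell at 10 µM by 0.70 ± 0.20 (log2, SE, edgeR adjusted p = 0.0387) and again from 10 to 20 µM, by 1.96 ± 0.34 (0.00358), while over all treated libraries the difference of −0.99 ± 0.40 did not pass (0.118).

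The remaining 9 genes of the family were mostly rare in these cells. KLF8 and KLF18 had 0 counts in every library, which at a floor of 3 counts allows up to 0.0212 to 0.0422 CPM. KLF7, KLF12, KLF14, KLF15 and KLF17 passed in no comparison in which they were tested. KLF16, a SIN3A-binding repressor, was well expressed, and was the one that fell at 10 µM besides KLF1. It ran from 82.1 to 89.5 CPM in the controls and from 61.7 to 66.5 CPM at 10 µM and stood at 74.2 CPM at 20 µM, with log2 falls of 0.54 ± 0.09 at 10 µM (SE, adjusted p = 0.00520) and 0.47 ± 0.11 over all treated libraries (0.0283).

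KLF5, an activator best known from proliferating epithelium, resembled KLF2 and KLF4 in standing far higher at 20 µM. It averaged 2.08 ± 0.433 CPM in the controls (SD, n = 4) and 3.87 ± 1.24 CPM at 10 µM (n = 3) and stood at 29.8 CPM at 20 µM. The step from 10 to 20 µM was 2.94 ± 0.39 (log2, SE, edgeR adjusted p = 0.00121), and neither 10 µM against control (0.77, adjusted p = 0.0920) nor all treated against control (2.20, 0.0777) passed. Counting KLF1 among the other KLF genes, 0 rose and 1 of 6 tested fell with treatment, against 14.2% of all genes called. At 10 µM 0 rose and 2 of 8 fell, against 19.1% called.

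The SP factors share the zinc finger type and many binding sites. In edgeR's test 0 of 7 tested passed in treated against control, where 14.2% of all genes did, with a median log2 difference of 0.20. Without adjustment 0 of 7 passed as well, and 4459 of 13101 genes did. At 10 µM 0 of 9 passed, where 19.1% of all genes did. Without adjustment 1 of 9 passed there, and 4901 of 14857 genes did. With so few genes, counts of 0 do not show that the SP factors responded less than other genes. SP1, a ubiquitous activator, held 141.9 ± 8.0 CPM in the controls (SD, n = 4), 173.7 ± 19.8 CPM at 10 µM (n = 3) and 187.8 CPM at 20 µM, with a log2 difference of 0.20 ± 0.12 (SE, adjusted p = 0.251). From 10 to 20 µM SP2 alone rose, by 0.65 (adjusted p = 0.0141), and 0 fell, where 26.3% of all genes were called.

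Genes that feed into or work with KLFs were followed in lists chosen with earlier results of these data known. The ERK5, MEF2 and FOXO inputs, which drive KLF2, KLF4 and KLF6 in other cells, were represented by 14 genes. Deacetylase genes such as HDAC5 and HDAC7 are among them, so a rise in this list is not always a stronger input. With treatment 2 rose and 1 fell, with a median log2 difference of 0.46, where 14.2% of all genes were called in either direction. HDAC5, a class IIa deacetylase that holds MEF2 silent, rose by 1.36 ± 0.23 (SE, adjusted p = 0.0156), from 43.2 ± 9.12 CPM (SD, n = 4) to 100.3 ± 6.63 CPM at 10 µM (n = 3) and 176.7 CPM at 20 µM. FOXO3, a forkhead factor of stress and quiescence, rose by 1.55 ± 0.34 (adjusted p = 0.0265), and HDAC7 fell by 0.70 ± 0.19 (0.0409). At 10 µM 3 rose, MAP3K3 being the added one (named after its value was seen), and 1 fell, where 19.1% of all genes were called. From 10 to 20 µM 8 of 14 rose and 2 fell, against 26.3% of all genes changed. Among them, and named after their values were seen, MEF2A rose by 1.23 (adjusted p = 0.00799), MEF2D by 1.15 (0.0045) and the ERK5 gene MAPK7 by 1.04 (0.0324), whereas MEF2C fell by 2.98 (9.07e-05).

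TGF-beta signalling, which induces KLF10 and KLF11, was represented by 14 genes, of which 4 rose with treatment and 0 fell (median 0.59), against 7.47% of all genes higher. SKIL, a feedback inhibitor of SMADs, rose by 1.11 ± 0.21 (log2, SE, adjusted p = 0.0181), from 13.0 ± 3.07 CPM (SD, n = 4) to 29.2 ± 6.42 CPM at 10 µM (n = 3) and 33.2 CPM at 20 µM. The inhibitory SMAD6 rose by 0.97 ± 0.26 (0.0400). SMAD3 also rose (0.56, 0.0405, named after its value was seen). SMAD7 did not pass (0.98, adjusted p = 0.342). The receptor gene TGFBR2 was near the floor, with means of 0.214 CPM in the controls and 0.152 CPM at 10 µM, and 1.61 CPM at 20 µM. These 2 were also named after their values were seen. Whether TGF-beta signalling changed was not tested. At 10 µM 5 rose and 0 fell, the receptor gene TGFBR1 (0.52, adjusted p = 0.0237) among the 5, where 9.34% of all genes rose. From 10 to 20 µM 3 of 14 rose, SKI and TGFBR3 among them, and 1 fell, TGFBR1. In that step 26.3% of all genes were called, 11.7% higher and 14.6% lower.

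The glucocorticoid receptor and its targets, which include inputs of KLF9, gave 2 rises and 1 fall among 8 genes (median 0.40), against 14.2% of all genes called in either direction. SGK1, a kinase gene, rose by 1.91 ± 0.33 (log2, SE, adjusted p = 0.0156) and the phosphatase gene DUSP1 by 1.61 ± 0.37 (0.0287), while FKBP4, a co-chaperone of the receptor, fell by 1.27 ± 0.20 (0.0136). The same 3 passed at 10 µM. Both rising genes also answer to other signals. From 10 to 20 µM the receptor gene NR3C1 rose by 1.46 (adjusted p = 0.00284) and DUSP1 by 1.32 (0.0135), and FKBP5, among the most used receptor targets, fell by 1.86 (0.0049).

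KLF partners are the proteins through which the factors repress or activate. Of 14 corepressors and coactivators, 0 rose and 1 fell (median −0.21), where 14.2% of all genes were called, the one being the acetyltransferase gene KAT2A, by 0.63 ± 0.16 (log2, SE, adjusted p = 0.0377). HDAC1 and HDAC2, deacetylases of the SIN3A complex, differed by −0.45 and −0.47 and did not pass (0.145 and 0.147). At 10 µM KAT2A fell and KAT2B rose. From 10 to 20 µM 3 genes rose and 4 fell (7 of 14, where 26.3% of all genes were called). Those that rose were SIN3B by 1.34 (adjusted p = 0.00157), CREBBP by 0.94 (0.0157) and EP300 by 0.66 (0.0146). HDAC1 by 0.87 (0.00626) and HDAC2 by 0.93 (0.00343) were among those that fell, with RBBP4 and KAT2B. Of 10 genes for ubiquitin ligases and other factors of KLF protein turnover, 1 fell, USP10 by 0.42 ± 0.12 (0.0479), and 0 rose (median 0.12). From 10 to 20 µM 4 of those 10 rose, SMURF1, FBXW7, ITCH and SIAH1, where 11.7% of all genes rose.

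Genes that other studies report as KLF targets numbered 21, of which 19 were tested in treated against control. There 9 rose and 0 fell, with a median log2 difference of 1.01, where 7.47% of all genes rose. At 10 µM 8 of 21 rose and 1 fell, where 9.34% of all genes rose. CCNG2, an atypical cyclin of arrested cells, rose by 3.00 ± 0.49 (log2, SE, adjusted p = 0.0144), from 1.85 ± 0.943 CPM (SD, n = 4) to 12.55 ± 3.92 CPM at 10 µM (n = 3) and 25.9 CPM at 20 µM. The tetraspanin gene CD9 rose by 2.87 ± 0.47 (0.0149). Also among those that rose, and named after their values were seen, were CDKN1A, LGALS3, PLAU, CCL5, PDK4 and BCL6. From 10 to 20 µM 5 of 21 rose and 1 fell, where 26.3% of all genes were called, 11.7% higher and 14.6% lower. The 1 that fell was NOS3, a reported KLF2 target of endothelium, by 1.21 (adjusted p = 0.0211) beside the higher KLF2. These targets have many other regulators, and whether KLF levels bear on them was not tested.

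**Figure D4:**
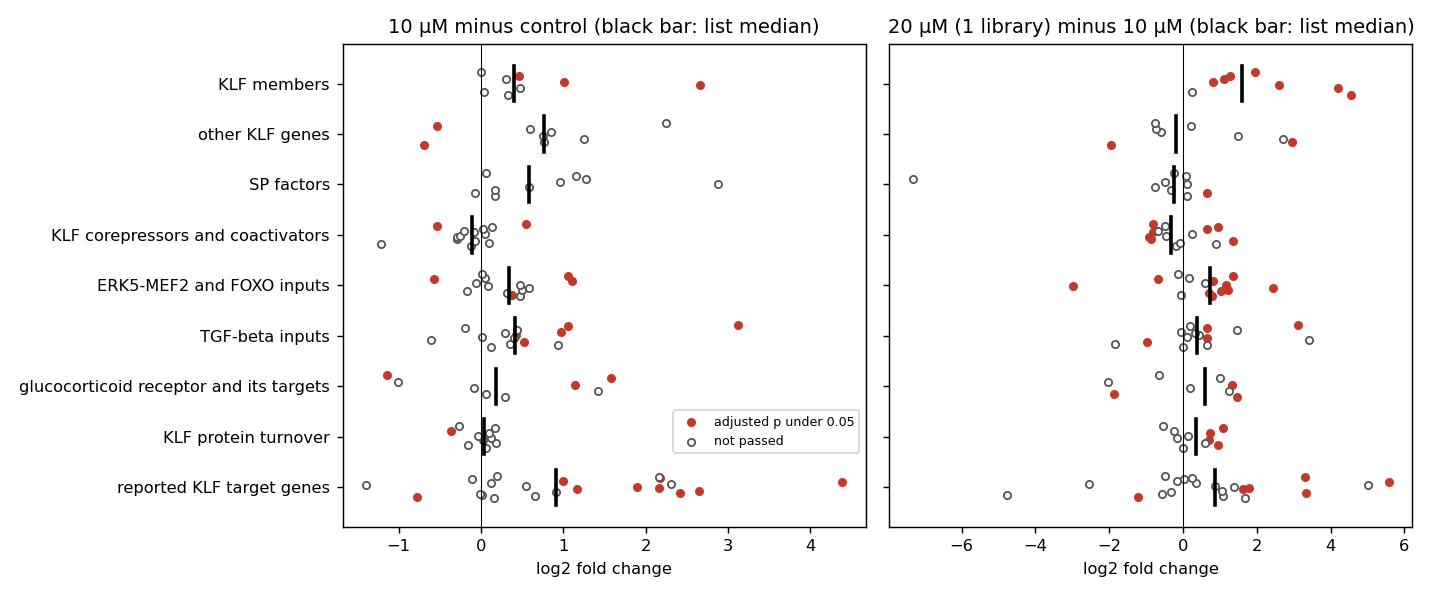
Log2 fold change of every tested gene (points) in each of 9 lists, for 10 µM minus control (left) and 20 µM minus 10 µM (right). Filled points passed an adjusted p under 0.05 in edgeR's quasi-likelihood test and black bars are list medians. The KLF members have medians of 0.39 and 1.60, and in the right panel the members and the ERK5, MEF2 and FOXO inputs have the most filled points above 0.

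Likeness of pattern was measured as Pearson's r of log2 CPM over the 8 libraries, among 13100 other genes. These libraries share their treatment groups, so a high r needs no more than the same order of groups. KLF6 was most like ARMCX3 (r = 0.997 over 8 libraries, 0.994 over the 7 without the 20 µM one), MBNL2 and PPFIBP1, and KLF11 most like DENND5A (0.999 and 0.993), ATG13 and TTC17. KLF9 was most like CDKL3 (0.993 and 0.986), CREBRF and WASHC2A, and KLF4 most like UNC5B (0.992 and 0.996), SEMA4F and SYNE3. For KLF10 the 3 genes were ZNF432, TBRG1 and B2M, for KLF13 KANSL1, FBRS and PLEKHM2, for KLF2 ELK1, PPP2CB and NFE2L2, and for KLF3 C10orf88, ZNF426 and FOXJ3.

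Among the members, r was positive in 28 of 28 pairs over the 8 libraries and in 26 of 28 over the 7 without the 20 µM library. KLF6 and KLF9 (r = 0.986 and 0.976), KLF9 and KLF11 (0.925 and 0.981) and KLF6 and KLF11 (0.941 and 0.956) stayed close with and without it. Those are the members that separated treated from control libraries. KLF13 paired with KLF11 at 0.861 over 8 libraries and at −0.03 over 7, and with KLF6 at 0.726 and 0.09, so the likeness of KLF13 to them rested on the 20 µM library.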

How the data were processed

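RNA-seq counts from 8 K562 libraries were analysed. The authors' deposited values are raw counts, 1 row a gene and 1 column a library, per the file headers. Bcl2fastq 2.0, HISAT2, StringTie, DESeq2, limma and hg38 are named in the submitters' processing notes, with no role given. Small values cluster (2958 entries at 4 counts, 401 at 1), so a count may not be 1 read, and floors (3 counts) cover counting error only. Rows naming no gene (9) were dropped.

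CPM is the count divided by the library's total, times 1000000, with no TMM factor applied. That factor ran from 0.9029 to 1.000 in the controls and from 1.018 to 1.085 in the treated libraries. CPM therefore set treated libraries somewhat higher against controls than the tests, which used TMM. Ratios, pair readings and counts of separated libraries in CPM, for members and for all genes, carry this shift. Tests used R 4.3.3 and edgeR 4.0.16 (filterByExpr, TMM, quasi-likelihood, two-sided, Benjamini-Hochberg at 0.05 over all genes tested), with DESeq2 1.42.0 and limma 3.58.1 as alternatives. The SE is the log2 fold change over the square root of F. Fits were tested on simulated counts. Other scalings and filters, the replicate block and leaving out each library were tried.

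Members, lists and motifs were chosen with earlier results of these data known. Genes named by rule are the members, the other KLF and SP genes, the 3 genes of each list with the smallest p in treated against control, and the 3 genes most correlated with each member. Any other list or marker gene was named after its value was seen, whether or not this is said where it appears. Some genes of the lists are counted but not reported here. The main tests did not pair the libraries. The labels' numbers were used as pairs only for pair ratios, joined lines and the replicate block. Same-numbered controls and treated libraries deviated together (r across genes 0.453, 0.251, 0.390 and 0.262 in pairs 1 to 4). Unlike numbers among the digit-named libraries correlated as well (control 2 with treated 3 at 0.310, control 3 with treated 2 at 0.242). Gene positions and exon lengths are from GENCODE 29, promoters from RefSeq.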

Additional observations from a re-analysis of the deposited data

Results flagged for a closer look

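KLF13 in control 1 stood apart from the other controls, at 49.3 CPM against 27.9 to 29.9 CPM. The gap to its nearest neighbour was 0.905 of the controls' whole range, above Dixon's 95% critical value for 4 samples. Chance flags about 1 in 20 such groups. Control 1 is also the deepest library, with 141307169 counts. Without it the log2 difference of KLF13 at 10 µM was 0.22 (edgeR adjusted p = 0.162), against 0.00 with it.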

How the results depend on the processing

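In treated against control it ranged from 0 to 3 when 1 library was left out (0 without control 2, 3 or 4, where 1.11%, 0.475% and 2.35% of all genes were called, and 3 without the 20 µM library, with 22.9%). It ranged from 2 to 3 at 10 µM (9.20% to 22.9% of all genes) and from 6 to 7 from 10 to 20 µM (19.3% to 29.1%). With the replicate block 5 members were called at 10 µM, and also 5 with the block on replicates 2 to 4 alone, an alternative added after seeing the data (35.5% of all genes), where KLF4 stood at 0.99 (adjusted p = 0.0410) and KLF10 at 0.39 (0.0260). The block changed no other call, with 2 members in treated against control (21.5% of all genes) and 7 from 10 to 20 µM (19.1%). Within the digit-named libraries, in the fit over all 8, 0 members were called (0.421% of all genes), with KLF2 at −0.60 and KLF3 at −0.0751.

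The direction of KLF13 at 10 µM, whose difference was about 0, turned under DESeq2 (−0.00983), under RLE scaling (−0.00992) and with libraries left out (−0.0638 to 0.22), and without the 20 µM library its treated difference was −0.0033 (range to 1.00). Leaving out 1 library gave ranges at 10 µM of −0.77 to 0.75 for KLF2, −0.0547 to 0.12 for KLF3 and −0.77 to 0.92 for KLF4, negative without 10 µM replicate 4. KLF11 passed in treated against control under DESeq2 (adjusted p = 0.0267). The causes were not tested. KLF6 and KLF9 kept their direction in every alternative run. The dose of 20 µM rests on 1 library, KLF2 on few counts outside it, and counts that may not be single reads limit what depth can show.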
